A study of Mus musculus with 12 samples.

Results

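A set of 9 genes of the immediate early response was followed in RNA from mouse hearts at embryonic day 9.5: Fos, Fosb, Jun, Junb, Egr1, Ier2, Ier3, Klf4 and Klf6. They were taken by gene symbol from 4 deposited tables that were joined on the gene identifier, and 8 of the 9 were listed among the 15663 genes of the joined tables. Fosb, on mouse chromosome 7 (GRCm38, 19302696 to 19310051, minus strand), was listed in none of the 4 tables and is not analysed here.

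Immediate early genes are switched on within minutes of a stimulus such as a growth factor, stretch or stress, without new protein synthesis, by factors that already sit in the cell and are activated by kinases. Several encode transcription factors: FOS, FOSB, JUN and JUNB pair into the AP-1 dimer, EGR1 is a zinc finger factor, and KLF4 and KLF6 belong to the Krüppel-like family. IER2 is a small nuclear protein and IER3 is a stress-inducible regulator of cell survival. In the heart these genes are known for their fast rise under mechanical load, and tissue handling is known to raise them too.

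RNA was sequenced from hearts in 12 libraries, 3 in each of 4 genotype groups, all of strain C57/BL 6. Every group carried the Cre driver labelled NkxCre and at least 1 floxed Asb2 allele, so that no group was free of Cre. The control group was NkxCre.Asb2fl/+, the Asb2 conditional knockout group (Asb2 cKO) was NkxCre.Asb2fl/fl, the Flna-labelled group was NkxCre.Asb2fl/+.Flnafl/fl, and the double-labelled group was NkxCre.Asb2fl/fl.Flnafl/fl. The series' design text names a single and a double mutant and counts the remaining groups, the first and the Flna-labelled one, as controls. The labels do not say which cells the driver reaches, nor whether a library came from 1 embryo or a pool, so p-values here measure the spread between libraries, which may be technical in part.

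Libraries held 25954539 to 42473118 reads in listed genes, and 1 read was worth 0.0239 to 0.038 CPM (counts scaled to library size, as the authors set it). Asb2, the substrate-recognition part of a ubiquitin ligase, stood at 289, 183 and 218 CPM in control hearts and 77.8, 163 and 115 CPM in Asb2 cKO hearts, and passed the test there (log2 difference -0.99 ± 0.26, SE, adjusted p = 0.0248, limma). Asb2 was also lower in the double-labelled group than in the control (121 to 153 CPM, -0.78, adjusted p = 0.00724). It stood at 113 to 197 CPM in the Flna-labelled group, which carries 1 floxed allele (-0.68 against the control, adjusted p = 0.334). Between the double-labelled and Flna-labelled groups, which differ in the Asb2 label, Asb2 RNA did not pass (-0.10, adjusted p = 0.737). Flna, which encodes the actin crosslinker filamin A, was not lower in the libraries labelled with floxed Flna: it stood at 958 to 1011 CPM in the Flna-labelled group and 1012 to 1146 CPM in the double-labelled group, against 490 to 721 CPM in control hearts. Against the control, Flna passed in the double-labelled group (0.86, adjusted p = 0.00255) and not in the Flna-labelled group (0.76, adjusted p = 0.147). Flna was also higher in the Asb2 cKO, which carries no Flna label, at 725 to 1032 CPM (0.58, adjusted p = 0.0464). The Asb2 and Flna values count reads of the whole gene and do not show whether floxed exons were lost. The Flna labels are used below as labels only. Cardiomyocyte markers were present in every library (summed level of 6 genes 12436 to 33457 CPM). The summed level of 6 primitive erythroid markers was 7357 to 7925 CPM in control hearts, 496 to 1180.1 CPM in Asb2 cKO hearts, 2999.99 to 3863.72 CPM in the Flna-labelled group and 344 to 589 CPM in the double-labelled group, and the part of this blood RNA in the results below was not tested. In whole hearts, fewer cells of a type and less RNA per cell cannot be told apart.

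RefSeq (GRCm38.p6) gave the 250 bases before the start site for 7 of the 9 genes; Egr1 and Ier2 have no entry. Of these, 4 are shown because they belong to genes that contrast in the results: Jun, Klf6 and Ier3 were high in all libraries with both Asb2 alleles floxed, and Fos was not. Junb was high in the same libraries, and its window is not shown. Each window shown is printed 5′ to 3′ on the strand of its gene, and capitals mark the motifs found. The windows are chr4:95052223-95052472 (minus strand) for Jun, chr13:5861239-5861488 (plus strand) for Klf6, chr17:35821463-35821712 (plus strand) for Ier3 and chr12:85473640-85473889 (plus strand) for Fos. Motif positions are counted from the RefSeq start. The Klf6 and Ier3 windows reach into the gene spans given below, which come from GENCODE and begin at 5861482 and 35821684.
Jun: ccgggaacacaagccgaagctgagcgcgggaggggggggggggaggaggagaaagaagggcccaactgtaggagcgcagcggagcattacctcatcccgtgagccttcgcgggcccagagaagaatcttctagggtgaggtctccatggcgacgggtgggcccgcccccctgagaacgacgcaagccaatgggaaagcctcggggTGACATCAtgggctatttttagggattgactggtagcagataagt
Klf6: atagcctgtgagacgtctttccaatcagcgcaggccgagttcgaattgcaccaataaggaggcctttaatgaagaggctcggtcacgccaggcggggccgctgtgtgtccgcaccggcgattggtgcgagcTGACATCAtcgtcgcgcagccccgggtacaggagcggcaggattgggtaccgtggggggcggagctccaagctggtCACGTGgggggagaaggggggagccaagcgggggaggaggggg
Ier3: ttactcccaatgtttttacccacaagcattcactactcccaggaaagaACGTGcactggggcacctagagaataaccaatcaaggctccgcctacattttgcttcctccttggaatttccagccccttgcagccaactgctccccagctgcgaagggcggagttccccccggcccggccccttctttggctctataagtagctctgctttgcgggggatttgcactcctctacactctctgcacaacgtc
Fos: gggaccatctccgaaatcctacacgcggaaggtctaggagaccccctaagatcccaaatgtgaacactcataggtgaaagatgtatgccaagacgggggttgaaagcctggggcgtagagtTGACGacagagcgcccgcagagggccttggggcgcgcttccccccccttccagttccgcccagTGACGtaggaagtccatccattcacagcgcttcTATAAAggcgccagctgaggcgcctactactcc

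In the Jun and Klf6 windows the capitals mark the 8 letters TGACATCA, which differ from the symmetric cAMP-response element and are known as a Jun/ATF-type site in the Jun promoter. This motif stood from 45 to 38 bases before the start of Jun and 119 to 112 bases before the start of Klf6, and it was added to the search after the sequences were seen. It was found on either strand in 2.93% of all 32851 windows of this length. In Klf6 the second run of capitals is ACGTG, the core of an E-box and hypoxia-response site, which overlaps its own match on the other strand, and in Ier3 the capitals mark the same core. ACGTG was found in 16.57% of all windows and in 3 of the 7 (Ier3, Klf4 and Klf6). Of these, Klf4 did not pass against the control in either group with both Asb2 alleles floxed. In Fos the capitals mark 2 copies of TGACG, the core of a cAMP-response element (17.77% of all windows, and 4 of the 7: Fos, Fosb, Junb and Klf4), and the TATA box TATAAA from 33 to 28 bases before the start (12.37% of all windows, and Fos among the 7). The window of Junb, which rose, held TGACG as Fos did, and neither TGACATCA nor ACGTG.

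None of the 7 windows held the CArG box bound by serum response factor (1.47% of all windows), the whole element TGACGTCA (1.55%) or the AP-1 site TGANTCA (6.75%). The EGR site GCGNGGGCG (4.7% of all windows) was in Fosb and Klf4. The GC box GGGCGG (32.74%), which can overlap the EGR site and is not in capitals above, was in 6 of the 7, all but Junb. A match is a description of letters and a missing match covers only these 250 bases. The windows were rich in GC, from 54.4% for Ier3 to 74.0% for Klf4, against a median of 52.4% over all windows.

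Levels between genes were compared per kilobase of the deposited gene length. In the control, Ier2 was the most abundant at 57.5 ± 8.91 CPM per kb (SD, n = 3). Klf6 (16.8 ± 1.09) and Jun (15.5 ± 1.84) followed, with overlapping libraries. Ier3 (5.81 ± 1.73) and Junb (4.67 ± 0.695) also overlapped, and were followed by Klf4 (3.00 ± 0.652), Fos (2.52 ± 0.352) and Egr1 (1.34 ± 0.312 CPM per kb).

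The order of Klf6 and Jun depends on the length used: the deposited length of Jun is 5034 bases, while its single exon spans 3189 bases in GENCODE M21, which would put Jun at 24.5 and above Klf6. In the Asb2 cKO and the double-labelled group, Ier3 moved up to 34.9 ± 15.3 and 37.3 ± 6.73 CPM per kb, and only Ier2 had a higher mean on the deposited lengths. Fos and Egr1 stayed at 1.01 to 3.17 CPM per kb in the means of all 4 groups. These low values rest on 69 to 359 reads per library for Fos and 108 to 670 for Egr1.

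**Figure D1:**
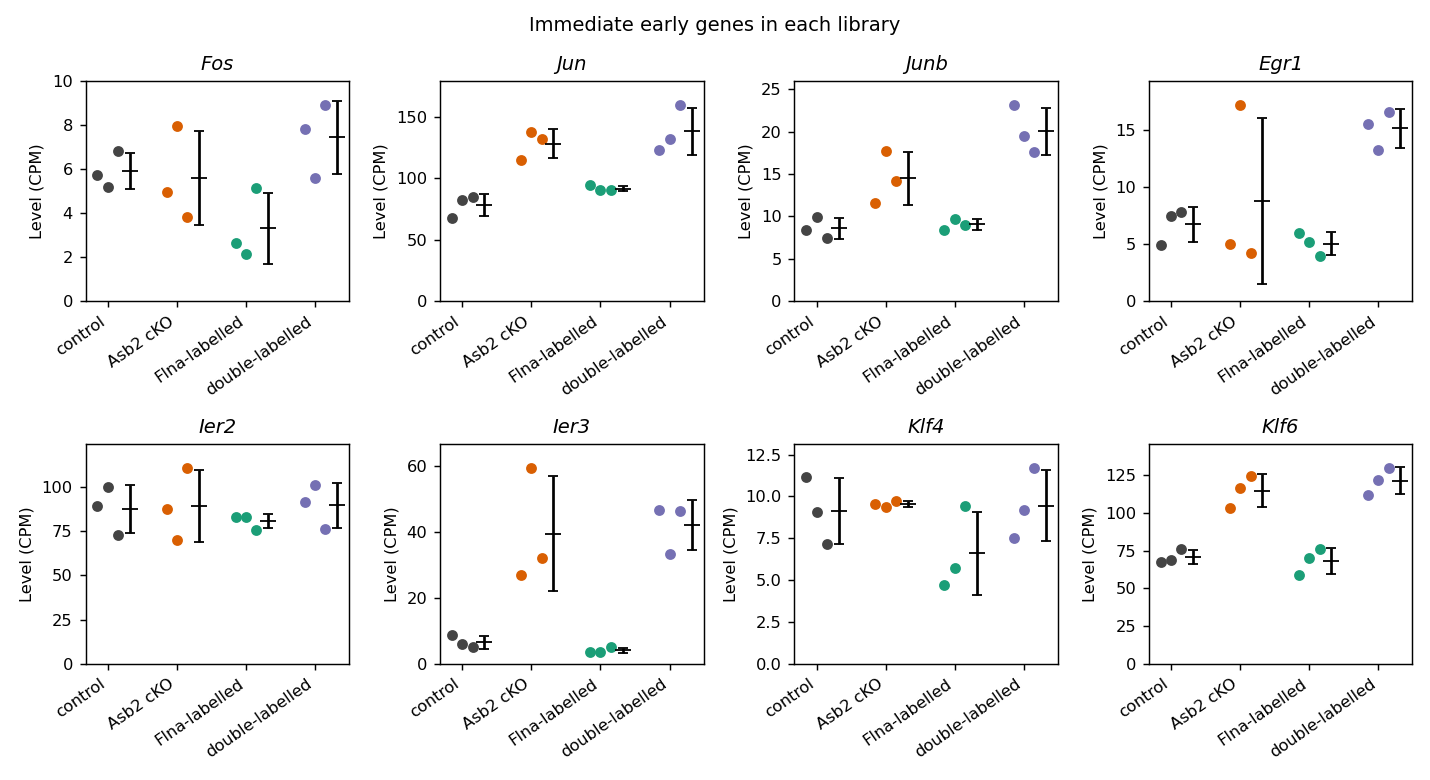
Level of each gene in CPM (vertical axis, from 0) in the 3 libraries of each genotype group (points), with the group mean and SD (bars). Jun, Junb, Ier3 and Klf6 were higher in all libraries of the Asb2 cKO and the double-labelled group than in any library of the other groups; Ier2 and Klf4 overlapped in all 4 groups.

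Among the AP-1 genes, Jun and Junb rose in hearts with both Asb2 alleles floxed, and Fos did not pass the test against the control in either group. Jun (chromosome 4, 95049034 to 95052222, minus strand, GRCm38), the founding AP-1 subunit, stood at 67.7, 82.5 and 84.6 CPM in control hearts and 115, 138 and 132 CPM in Asb2 cKO hearts. It stood at 94.4, 90.3 and 90.5 CPM in the Flna-labelled group and 123, 132 and 159 CPM in the double-labelled group. The 6 libraries with both Asb2 alleles floxed were all above the 6 with 1 floxed allele, with 114.8 CPM the lowest of the former and 94.4 CPM the highest of the latter.

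Groups were compared with limma on log2(CPM + 0.5), with Benjamini-Hochberg adjustment over all genes tested and a threshold of 0.05; differences are given with their SE. In the Asb2 cKO against the control, Jun rose by 0.71 ± 0.14 (1.64-fold, adjusted p = 0.0066). In the double-labelled group Jun rose by 0.82 ± 0.13 against the control (adjusted p = 0.00172) and by 0.58 ± 0.11 against the Flna-labelled group (adjusted p = 0.00482). The span of Jun shares 689 bases with the antisense gene Junos, whose level was 0.132 to 1.82 CPM where it was listed. Whether counting used the strand is not given in the sources used here.

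Junb (chromosome 8, 84974484 to 84978718, minus strand), an AP-1 subunit that often opposes JUN, stood at 8.43, 9.93 and 7.39 CPM in control hearts and 11.5, 17.7 and 14.2 CPM in Asb2 cKO hearts. It stood at 8.45, 9.66 and 9.04 CPM in the Flna-labelled group and 23.1, 19.5 and 17.6 CPM in the double-labelled group. The double-labelled libraries overlapped the Asb2 cKO only through its library 2, and no library of either group reached down to the remaining ones. Junb rose by 0.71 ± 0.21 in the Asb2 cKO (adjusted p = 0.0385), by 1.18 ± 0.17 in the double-labelled group against the control (adjusted p = 0.00107) and by 1.10 ± 0.15 against the Flna-labelled group (adjusted p = 0.00134). The first of these calls was weak: leaving out control library 1 (adjusted p = 0.0855), 2 (0.0598) or 3 (0.106) ended it, as did leaving out Asb2 cKO library 2 (0.121) or 3 (0.0796). It was also lost with the replicate number as a block (adjusted p = 0.0754) and in limma without trend and robust steps (0.0505). Junb shares 351 bases with Prdx2 on the opposite strand, a peroxiredoxin gene that fell where Junb rose (-0.56 in the Asb2 cKO and -0.77 in the double-labelled group against the control, adjusted p = 0.0477 and 0.00277). Prdx2 stood far above Junb, at 484 to 624 CPM in control hearts, and the part of its reads in the Junb counts was not tested.

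Fos (chromosome 12, 85473890 to 85477273, plus strand), the partner of JUN in the classical AP-1 dimer, stood at 5.73, 5.19 and 6.81 CPM in control hearts and 4.97, 7.98 and 3.82 CPM in Asb2 cKO hearts. It stood at 2.66, 2.12 and 5.14 CPM in the Flna-labelled group and 7.82, 5.61 and 8.89 CPM in the double-labelled group. The Flna-labelled libraries were all below the control and the double-labelled group, and the Asb2 cKO overlapped every group. Against the control the difference was -0.12 (95% interval -0.75 to 0.50, adjusted p = 0.776) in the Asb2 cKO and 0.29 (-0.20 to 0.79, adjusted p = 0.337) in the double-labelled group. Against the Flna-labelled group, Fos rose by 1.12 ± 0.31 in the double-labelled group (adjusted p = 0.0266). That call ended without Flna-labelled library 1 (adjusted p = 0.0841) or 2 (0.0848) and without double-labelled library 1 (0.0649) or 3 (0.0882).

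Egr1 (chromosome 18, 34859823 to 34864984, plus strand), a zinc finger factor induced through serum response factor, was high in 4 of the 12 libraries. It stood at 4.94, 7.46 and 7.80 CPM in control hearts, 5.01, 17.2 and 4.20 CPM in Asb2 cKO hearts, 5.97, 5.23 and 3.97 CPM in the Flna-labelled group and 15.6, 13.3 and 16.6 CPM in the double-labelled group. All 3 double-labelled libraries and Asb2 cKO library 2 stood at or above 13.3 CPM, and none of the remaining 8 exceeded 7.80 CPM. In the double-labelled group Egr1 rose by 1.13 ± 0.21 against the control (2.19-fold, adjusted p = 0.00307) and by 1.51 ± 0.19 against the Flna-labelled group (2.84-fold, adjusted p = 0.000998). In the Asb2 cKO the difference was 0.12, with a 95% interval from -0.89 to 1.13 (adjusted p = 0.873).

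Within the Asb2 cKO, the spread of Egr1 went along with Xist, the RNA of the inactive X chromosome, which differs between female and male embryos. Xist stood at 571, 0.380 and 377 CPM in Asb2 cKO hearts and 0.0477, 0.546 and 9.34 CPM in the double-labelled group, so the 2 Asb2 cKO libraries with low Egr1 were those with high Xist. The pattern was not seen outside the Asb2 cKO. In the double-labelled group the library with the most Xist, at 9.34 CPM, also had the most Egr1, at 16.6 CPM. The Flna-labelled libraries had both low Xist (0.0506 to 0.367 CPM) and low Egr1. The control libraries with Xist at 302 and 106 CPM had slightly more Egr1 than the one at 0.823 CPM. With Xist as a covariate in a fit of all 12 libraries, an alternative chosen after the data were seen, the Egr1 difference between the double-labelled group and the control was 0.79 and did not pass (adjusted p = 0.192). In the same fit the difference from the Flna-labelled group was 1.62 and passed (adjusted p = 0.00737). Xist was at most 9.34 CPM in all libraries with the Flna label, and both high and low in the control and Asb2 cKO. Comparisons across the Flna label, and the interaction, therefore also differ in Xist. Embryo sex was not given in the labels, and its part in the Egr1 result and in these comparisons was not tested further.

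**Figure D2:**
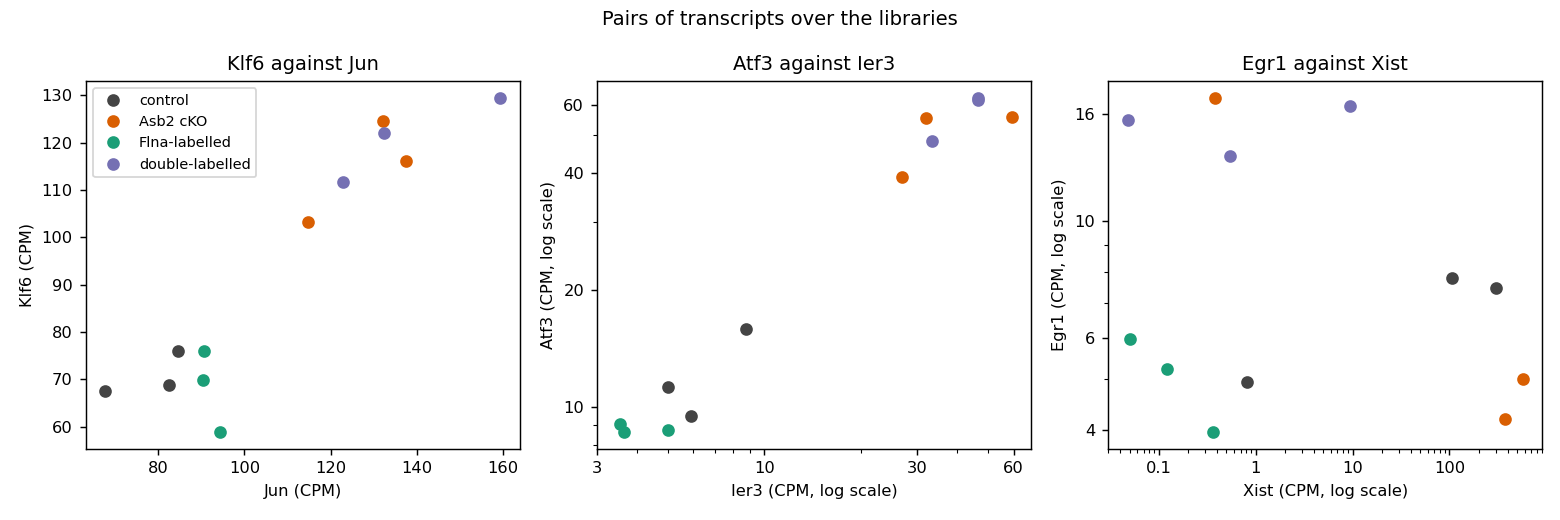
Klf6 against Jun (left), Atf3 against Ier3 (middle, log axes) and Egr1 against Xist (right, log axes), in CPM, with 1 point per library coloured by genotype group. In the first pairs the 6 libraries with both Asb2 alleles floxed lie apart from the other 6. In the last, 4 libraries with Egr1 at 13.3 to 17.2 CPM all have Xist under 10 CPM. The Flna-labelled libraries and control library 1 also have Xist under 10 CPM, with Egr1 at 3.97 to 5.97 CPM and 4.94 CPM.

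Of the IER genes, Ier3 rose and Ier2 did not pass in any comparison. Ier3 (chromosome 17, 35821684 to 35822923, plus strand) showed the largest rise of the 8 genes in each of the 3 comparisons that differ in the Asb2 genotype. Ier3 stood at 8.75, 5.93 and 5.0 CPM in control hearts and 27.0, 59.2 and 32.1 CPM in Asb2 cKO hearts. It stood at 3.64, 3.54 and 5.0 CPM in the Flna-labelled group and 46.6, 33.4 and 46.4 CPM in the double-labelled group. The lowest library with both Asb2 alleles floxed, at 27.0 CPM, was well above the highest of the remaining 6, at 8.75 CPM.

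Ier3 rose by 2.45 ± 0.29 in the Asb2 cKO (5.47-fold, adjusted p = 0.000626), by 2.61 ± 0.22 in the double-labelled group against the control (6.12-fold, adjusted p = 4.51e-05) and by 3.22 ± 0.19 against the Flna-labelled group (9.34-fold, adjusted p = 4.16e-05). By p it ranked 122nd of 14034, 81st of 14015 and 18th of 13954 genes. Without Asb2 cKO library 2, the highest, the first difference was 2.12 (adjusted p = 0.000679). The authors' deposited table gives log2 fold changes of 2.59 and 2.68 for Ier3 against the control.

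Ier2 (chromosome 8, 84661331 to 84662852, minus strand), a gene of 1 exon, stood at 89.4, 99.9 and 73.0 CPM in control hearts, 87.2, 69.9 and 110.5 CPM in Asb2 cKO hearts, 83.1, 82.9 and 75.8 CPM in the Flna-labelled group and 91.3, 101 and 76.2 CPM in the double-labelled group. All 4 groups overlapped. Its differences from the control were 0.02 (95% interval -0.38 to 0.41), -0.11 (-0.39 to 0.17) and 0.04 (-0.29 to 0.36) in the Asb2 cKO, Flna-labelled and double-labelled groups.

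Of the Krüppel-like genes, Klf6 rose with the Asb2 genotype and Klf4 did not pass. Klf6 (chromosome 13, 5861482 to 5870394, plus strand), a factor induced in injured and remodelling tissue, stood at 67.5, 68.8 and 76.0 CPM in control hearts and 103, 116 and 124 CPM in Asb2 cKO hearts. It stood at 58.8, 69.8 and 76.0 CPM in the Flna-labelled group and 112, 122 and 129 CPM in the double-labelled group. The 2 sets of 6 libraries did not overlap, with 103.3 CPM against 76.0 CPM at their nearest. Klf6 rose by 0.69 ± 0.13 in the Asb2 cKO (1.61-fold, adjusted p = 0.00542), by 0.77 ± 0.11 in the double-labelled group against the control (adjusted p = 0.000741) and by 0.83 ± 0.11 against the Flna-labelled group (adjusted p = 0.00141).

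Klf4 (chromosome 4, 55527143 to 55532466, minus strand), a pluripotency and endothelial flow-response factor, stood at 11.2, 9.08 and 7.19 CPM in control hearts and 9.56, 9.35 and 9.70 CPM in Asb2 cKO hearts. It stood at 4.68, 5.72 and 9.40 CPM in the Flna-labelled group and 7.49, 9.19 and 11.7 CPM in the double-labelled group. All 4 groups overlapped. The difference of 0.52 between the double-labelled and Flna-labelled groups did not pass (adjusted p = 0.17), but it passed without Flna-labelled library 3 (0.79, adjusted p = 0.0321) and with the replicate number as a block (adjusted p = 0.0461).

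**Figure D3:**
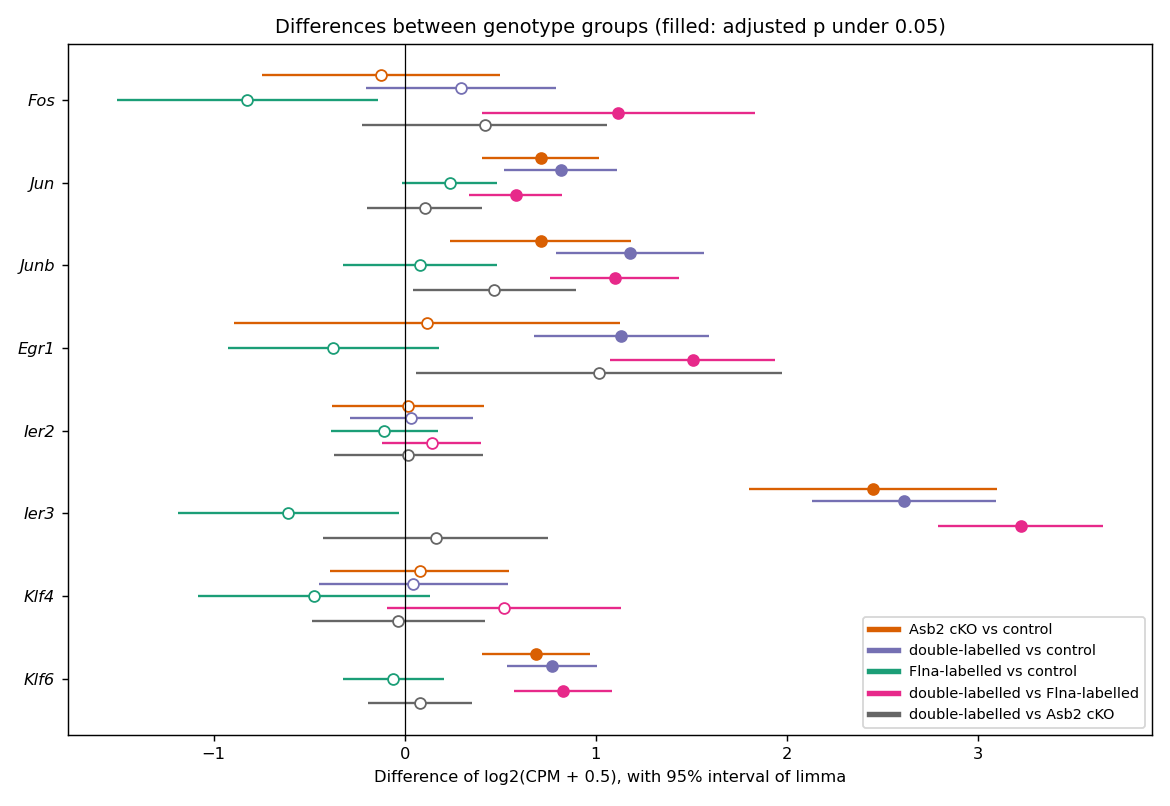
Difference of log2(CPM + 0.5) between genotype groups for each gene (horizontal axis, with the 95% interval of limma); filled points passed at an adjusted p under 0.05. Ier3 lies at 2.45 to 3.22 in the 3 comparisons that differ in the Asb2 genotype, and no point of the Flna-labelled against the control or of the double-labelled against the Asb2 cKO is filled.

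Counted by comparison, 4 of the 8 tested genes rose in the Asb2 cKO against the control (Jun, Junb, Ier3 and Klf6) and 0 fell, while 10.7% of the 14034 genes tested rose and 10.9% fell. In the double-labelled group against the control, 5 of 8 rose (the same 4 and Egr1) and 0 fell, beside 15.6% and 16.7% of all genes. Against the Flna-labelled group, 6 of 8 rose (these 5 and Fos) and 0 fell, beside 15.1% and 16.3%. Of these comparisons, those with the control share its libraries, and those of the double-labelled group share the double-labelled libraries, so the counts are not independent of each other. The members were chosen with earlier results of these data known. Their counts beside the shares of all genes are therefore a description only. The median difference of the 8 genes was 0.40, 0.79 and 0.96 in the 3 comparisons, while the median of all genes tested lay between -0.02 and 0.01. Jun, Junb, Ier3 and Klf6, 4 of 8, had every library with both Asb2 alleles floxed above every library with 1, which held for 10.2% of 13981 genes.

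In the Flna-labelled group against the control, 0 of 8 genes passed, and 10 of 13891 genes (0.072%) did so in either direction by limma. These 10 included 3 of the 6 primitive erythroid markers, all lower: Hbb-y (-1.23, adjusted p = 0.0223), Hbb-bh1 (-1.20, 0.0282) and Hba-x (-1.14, 0.0223). Unadjusted p was under 0.05 for 1822 genes there, among them Fos (-0.82, adjusted p = 0.332) and Ier3 (-0.61, adjusted p = 0.363), both lower. Calls in that comparison depended on the tool, with 2 genes by edgeR and 244 by DESeq2, and 0 of the 8 genes by either. In the double-labelled group against the Asb2 cKO, 0 of 8 passed and 3 of 14037 genes (0.0214%) did. Unadjusted p was under 0.05 for 471 genes, among them Junb (0.47, 95% interval 0.04 to 0.89) and Egr1 (1.02, 0.06 to 1.98), each with adjusted p = 0.999; neither edgeR nor DESeq2 called any of the 8 genes. Without Asb2 cKO library 2, the one with high Egr1, the Egr1 difference was 1.62 and passed (adjusted p = 0.0148).

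Whether the difference made by the Asb2 genotype changed with the Flna label was tested as an interaction over all 12 libraries. It passed for 0 of 8 genes and 0% of the 13981 tested by limma, with unadjusted p under 0.05 for 1372 genes. Fos (1.24 ± 0.44, adjusted p = 0.445) and Egr1 (1.39 ± 0.56, adjusted p = 0.483) were among these 1372. DESeq2 called 71 genes, and neither it nor edgeR called any of the 8. Without Asb2 cKO library 2 the interaction of Egr1 was 1.99 and passed (adjusted p = 0.0376), so 1 library decides this result.

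Levels of the 8 genes were also compared with each other over the 12 libraries, as a description. Of 28 pairs, 16 had a Pearson r above 0.5, with a median of 0.552, a lowest value of -0.278 for Fos and Ier2 and a highest of 0.940 for Ier3 and Klf6. These values share the 4 genotype groups. With each group's mean removed, the median r was 0.098, 4 pairs exceeded 0.5, and 10 were below 0. Within groups Fos and Ier2 went in opposite directions (r = -0.788), and Fos and Ier3 together (0.655). Asb2 cKO library 2, the library of its group with low Xist, had the highest level of that group for 5 of the 8 genes (Fos, Jun, Junb, Egr1 and Ier3) and the lowest for Ier2 and Klf4.

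The transcripts most like each gene over the 12 libraries were taken among 10640 genes that averaged 5 CPM or more. For Ier3 they were Bhlhe40 (r = 0.991), Atf3 (0.987) and Mboat2 (0.987). Bhlhe40, which encodes a basic helix-loop-helix repressor, stood at 15.2 to 19.5 CPM in control hearts and 67.5 to 126 CPM in Asb2 cKO hearts. For Junb they were Sars (0.983), Mthfd2 (0.981) and Phf10 (0.977), the first encoding the seryl-tRNA synthetase and the second a mitochondrial folate enzyme. For Jun they were Zfp9 (0.978), Lmbrd1 (0.977) and Slc38a2 (0.976), the last an amino acid transporter gene. For Klf6 they were Hspa1l (0.981), Ctgf (0.980) and Rras (0.980).

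The remaining genes had less close neighbours. For Egr1 the first was Dennd2c (0.948), which like Egr1 was highest in Asb2 cKO library 2 (12.6 CPM, against 3.87 and 3.13 CPM in the other libraries of that group). For Fos the first was Mdm2 (0.917), for Ier2 Wbp5 (0.901) and for Klf4 Prss23 (0.916). The mean of the standardised levels of the 8 genes was closest to Ppp1r3c (0.980), Ctsl (0.980) and Dusp10 (0.979). It lay at -1.10 to -0.25 in the 6 libraries with 1 floxed Asb2 allele and 0.12 to 1.03 in the 6 with both. Jun, Junb, Ier3 and Klf6, which enter this mean, each separated these libraries alone, as did 10.2% of 13981 genes. The members were chosen with earlier results of these data known, so the gap in their mean is a description only.

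A set of 7 lists of related genes, written with earlier results of these data known, was counted for the wider pathway as a description. Each is given by its counts in the Asb2 cKO against the control, the double-labelled group against the control and the double-labelled against the Flna-labelled group, in that order. Beside each count stand the shares of all genes that rose, 10.7%, 15.6% and 15.1%. In the Flna-labelled group against the control, in the double-labelled group against the Asb2 cKO, and in the interaction, 0 genes of any of these 7 lists passed.

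Of 9 tested AP-1 partners, 4, 7 and 6 rose and 0 fell (Fosl1 is not listed). Atf3, a stress-induced factor that dimerises with JUN, stood at 9.49 to 15.9 CPM in control hearts, 39.2 to 55.8 CPM in Asb2 cKO hearts, 8.63 to 9.04 CPM in the Flna-labelled group and 48.3 to 62.5 CPM in the double-labelled group. It rose by 2.01 ± 0.21 (adjusted p = 0.000292), 2.21 ± 0.19 (5.55e-05) and 2.63 ± 0.13 (2.32e-05). Maff, a small MAF factor, rose by 1.54, 1.59 and 1.56 (adjusted p = 0.00128, 0.000115 and 0.00104). Fosl2, a FOS relative, rose by 0.997, 1.35 and 1.39 (adjusted p = 0.0386, 0.00107 and 0.000574).

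Of 5 tested genes of the EGR and NR4A list, 0, 1 and 2 rose and 1, 1 and 0 fell; Egr2, Egr3 and Egr4 are not listed. Nr4a1, an orphan nuclear receptor gene of the immediate early class, rose by 0.66 in the double-labelled group against the control (adjusted p = 0.0246) and by 1.05 against the Flna-labelled group (adjusted p = 0.00379). Nr4a3 rose by 1.33 in the last comparison (adjusted p = 0.0137), at 1.88 to 2.80 CPM against 0.455 to 1.01 CPM. Nab1, a corepressor of EGR factors, fell by 0.59 in both comparisons with the control (adjusted p = 0.0143 and 0.00993).

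Of 30 other early response genes, 9 and 15 rose against the control and 0 fell, and 16 of 29 rose and 1 fell against the Flna-labelled group. Ctgf and Cyr61, which encode matricellular proteins of the CCN family, had the smallest p of the list in both comparisons with the control. Ctgf stood at 57.3, 50.1 and 47.7 CPM in control hearts and 135, 259 and 243 CPM in Asb2 cKO hearts. It stood at 36.2, 46.7 and 55.7 CPM in the Flna-labelled group and 253, 266 and 324 CPM in the double-labelled group, with no overlap by Asb2 genotype. It rose by 1.98 ± 0.22 (adjusted p = 0.000455), 2.43 ± 0.12 (2.2e-06) and 2.61 ± 0.16 (6.98e-05). Cyr61 rose by 1.05, 1.41 and 1.47 (adjusted p = 0.00135, 0.000103 and 0.00223). Btg2, an antiproliferative early gene, rose by 0.94, 1.15 and 1.51 (adjusted p = 0.00492, 0.000216 and 0.000219).

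Of 8 other KLF genes, 4, 5 and 5 rose and 0, 1 and 0 fell. Klf13 rose by 0.74, 0.87 and 0.74 (adjusted p = 0.0061, 0.000482 and 0.00147), and Klf7 by 0.67, 0.86 and 1.05 (adjusted p = 0.018, 0.000826 and 0.00115). Klf3 rose by 0.69 and 0.625 against the control (adjusted p = 0.0152 and 0.0076). It did not pass against the Flna-labelled group (0.25, adjusted p = 0.212).

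Of 11 genes for phosphatases and Sprouty proteins that damp the MAP kinase pathway, 5, 5 and 6 rose and 0 fell. Dusp10, a phosphatase for the stress kinases p38 and JNK, stood at 13.0 to 17.1 CPM in control hearts, 24.8 to 33.5 CPM in Asb2 cKO hearts and 30.3 to 42.1 CPM in the double-labelled group. It rose by 0.95, 1.25 and 1.63 (adjusted p = 0.00544, 0.000578 and 0.000279). Dusp4 rose by 0.71, 0.69 and 0.70 (adjusted p = 0.00763, 0.00414 and 0.0046), and Dusp6 by 0.47, 0.61 and 0.67 (adjusted p = 0.02, 0.00546 and 0.00396).

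Upstream of the members, 4, 6 and 3 of 22 kinases and promoter factors rose and 2, 2 and 2 fell, shares nearer to those of all genes. The genes of the paired kinases MEK1 and MEK2 moved in opposite directions. Map2k1 rose by 0.72, 0.72 and 0.78 (adjusted p = 0.00928, 0.00257 and 0.00278), and Map2k2 fell by 0.79, 0.75 and 0.64 (adjusted p = 0.00771, 0.00143 and 0.00177).

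Of 10 heat shock genes, a class that also responds to handling, 0, 1 and 2 rose and 5, 5 and 6 fell, beside 10.9%, 16.7% and 16.3% of all genes that fell. Hsph1, a chaperone of the HSP110 class, stood at 173 to 192 CPM in control hearts, 55.4 to 86.3 CPM in Asb2 cKO hearts, 219.9 to 249 CPM in the Flna-labelled group and 68.5 to 90.1 CPM in the double-labelled group. It fell by 1.42, 1.28 and 1.62 (adjusted p = 0.00042, 0.000117 and 9.63e-05). Hspd1 was also lower in all 3 comparisons (-0.86, -0.81 and -0.64, adjusted p = 0.00316, 0.000698 and 0.00166). So was Dnaja1 (-0.88, -0.86 and -0.96, adjusted p = 0.00906, 0.00139 and 0.000776). Hspa1a, named after its values were seen, rose by 1.07 and 1.15 in the double-labelled group (adjusted p = 0.0275 and 0.0194), and Hspa1b, a near-identical copy whose reads can be confused with it, did not pass. Hspa1l, which is not in the list, rose by 2.29, 2.68 and 2.71 (adjusted p = 0.000209, 2.6e-05 and 0.00064). The part of handling in the levels of the immediate early genes was not tested.

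**Figure D4:**
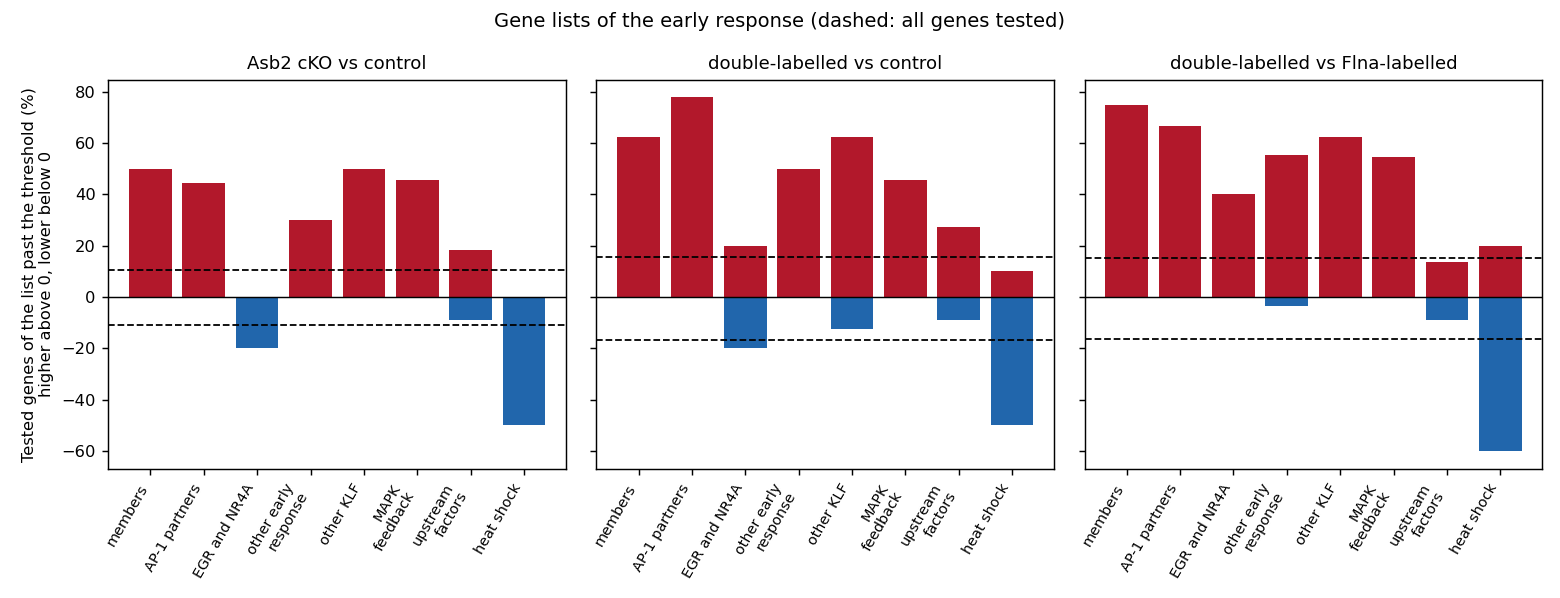
Share of the tested genes of each list past the threshold in 3 comparisons (percent, higher above 0 and lower below 0), with the same share over all genes as dashed lines. AP-1 partners, other KLF and other early response genes lie above the upper line in all 3 panels, and the heat shock bars below 0 reach beyond the lower line. Members and lists were chosen with earlier results of these data known.

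Counts of cell type markers are given for the same 3 comparisons, beside the shares of all genes above. Of 6 primitive erythroid markers, 6, 6 and 6 fell, with median differences of -3.22, -3.99 and -2.82. Of 7 endocardial and endothelial markers, 1, 4 and 4 rose and 1, 0 and 0 fell. Their summed level was 724 to 912 CPM in control hearts, 827 to 1215 CPM in Asb2 cKO hearts, 639.8 to 843 CPM in the Flna-labelled group and 1029.7 to 1428 CPM in the double-labelled group.

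Of 6 cardiomyocyte markers, 0, 1 and 2 rose and 0 fell, Myh7 in both comparisons of the double-labelled group (0.84 and 1.28, adjusted p = 0.0172 and 0.0131) and Ttn against the Flna-labelled group (2.00, adjusted p = 0.0216). Of 4 epicardial markers, 0, 0 and 2 fell and 0 rose, Wt1 and Tcf21 against the Flna-labelled group (adjusted p = 0.0324 and 0.0243). Their summed level was 43.8 to 309 CPM in control hearts, the widest range, and 112 to 152 CPM in Asb2 cKO hearts. It was 158 to 229 CPM in the Flna-labelled group and 95.8 to 161 CPM in the double-labelled group. Of 3 tested neural crest markers, 0, 1 and 0 rose and 0 fell, the 1 being Ets1 (0.65, adjusted p = 0.013). Of 5 epithelial markers, 2, 2 and 1 rose and 0 fell, with Krt8 and Krt18 passing against the control. The epithelial sums were 229.6 to 311 CPM in control hearts, 419 to 600 CPM in Asb2 cKO hearts, 240.4 to 450.4 CPM in the Flna-labelled group and 339 to 556 CPM in the double-labelled group, so that they overlapped between the Asb2 genotypes. Of the macrophage markers, Ptprc and Adgre1 are not listed and the remaining 2 summed to at most 4.10 CPM in any library. Marker genes named in these counts were chosen after their values were seen, and the part of these cell types in the levels of the immediate early genes was not tested.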

How the data were processed

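RNA was sequenced from 12 heart libraries of 4 genotype groups. Per the submitters' processing notes, STAR, HTSeq, edgeR and the mm10 build were used; versions, gene annotation and strand are not given in the sources used here. The authors' 4 deposited tables hold signal values named CPM that are scaled by 1 factor per library. All of them (100.0%) are whole multiples of 1 read within 0.01 read, where plain CPM had been planned for, and the tables agree to within 4.4e-06 CPM where they share a library, so they were joined (14810 of 15663 genes listed for all libraries). The deposited log2 fold changes, p-values and FDR are the authors' own and were used only where named, and the deposited gene length served for levels per kb. A further 12 columns without headers were not used.

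Groups were compared with limma 3.58.1 (trend, robust; R 4.3.3) on log2(CPM + 0.5), over genes averaging 1 CPM or more in the 6 libraries (12 for the interaction), with Benjamini-Hochberg adjustment over all genes tested. All 8 listed members passed this filter in every comparison. Alternatives were pseudocounts of 0.1 and 2, no filter or 5 CPM, median-of-ratios scaling, limma without trend and robust steps, edgeR 4.0.16 and DESeq2 1.42.0 on the recovered reads (counts), the replicate block, a joint fit of 4 groups, a length trend removed (lowess span 0.3) and leaving out each library. The steps were tested on simulated data. Joining, sums and plots used python 3.11.15, numpy 2.4.6, pandas 2.3.3 and matplotlib 3.10.9.

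Positions and overlaps came from GENCODE M21 (GRCm38), in which 15522 identifiers were found. Replicates differed by more than sampling noise in all 12 pairs within groups (mean chi-square per gene 20.3 to 116.8). Replicate numbers were not used as pairs: same-numbered libraries correlated at -0.46 to 0.43 once group means were removed, and 0 of 6 pairs of groups had every correlation over 0.1. The genes named are the 9 members, the 2 smallest p-values past the threshold per list and comparison, and the 3 closest neighbours by Pearson r, of which the first alone is given for some. The members and lists were chosen with earlier results of these data known.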

Additional observations from a re-analysis of the deposited data

How the results depend on the processing

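The 8 genes were recomputed under every alternative, giving 903 values, of which 887 kept their side of the threshold, 12 lost a call, 4 gained one and 0 reversed a call. Among the 887, 24 values that were not called changed sign. The number of members past the threshold ranged from 3 to 4 in the Asb2 cKO, from 4 to 5 in the double-labelled group against the control and from 5 to 7 against the Flna-labelled group. It was 0 throughout in the Flna-labelled group against the control. Leaving out 1 library gave 0 to 1 members in the double-labelled group against the Asb2 cKO and 0 to 1 in the interaction, the 1 being Egr1 without Asb2 cKO library 2 in both. The filter at 5 CPM removed Fos from the Flna-labelled comparison with the control.

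Counts over all genes moved more. In the Asb2 cKO, 3033 genes became 1771, 1581 and 2004 without control library 1, control library 2 and Asb2 cKO library 2. The 10 genes of the Flna-labelled group against the control became 0 without trend and robust steps, 2 by edgeR, 244 by DESeq2, 2 in the joint fit, 6 with the length trend removed and 0 to 98 without 1 library. In the double-labelled group, 4523 against the control became 2875 without its library 2, and 4394 against the Flna-labelled group became 2805, 2776 and 2712 without Flna-labelled libraries 1 and 2 and double-labelled library 2. The 3 genes against the Asb2 cKO became 14 by DESeq2, 0 in the joint fit and 26 without Asb2 cKO library 2, and the 0 of the interaction became 71 by DESeq2, 18 without Asb2 cKO library 2 and 1 without Flna-labelled library 2. With Xist as a covariate, chosen after the data were seen, the Flna-labelled group gave 3 genes, the double-labelled group 2669 against the control and 0 against the Asb2 cKO, and the interaction 5. The cause of these shifts was not tested.

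With the replicate number as a block, 1557 genes passed in the Asb2 cKO and 1 in the Flna-labelled group, against 3033 and 10 without the block. Under the block, 3 members passed in the Asb2 cKO, 5 in the double-labelled group against the control and 7 against the Flna-labelled group, and 0 in the remaining comparisons; no call of a member changed beyond those of Junb and Klf4 given above. The numbers are not known to mark shared litters or days. Fos rested on 69 to 359 reads per library. Its SD was 14.0% of the mean in control hearts and 38.4% in Asb2 cKO hearts. In the Flna-labelled and double-labelled groups it was 48.7% and 22.5%. The part of counting error in this spread, which limits small differences in the low genes, was not tested.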
